A study of Rattus norvegicus with 232 samples.

Results

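The 10 genes described here, Ttr, Kl, Folr1, Aqp1, Kcnj13, Slc4a5, Clic6, Otx2, Sostdc1 and Kcne2, are markers of the choroid plexus epithelium. They were taken by name from the gene table of the RefSeq annotation, in which all 10 were measured among 20859 features. The values come from RNA sequencing of rRNA-depleted libraries of rat brain, from untreated animals labelled as male, in inbred and recombinant inbred rats that make up the Hybrid Rat Diversity Panel. The table held 214 libraries of 197 animals in 74 strains, and the libraries of an animal were averaged. Tests were run on the 69 strains with 2 or more animals (192 animals, of which 54 strains gave 3 animals and 15 strains gave 2). These were 30 strains of the HXB/BXH recombinant inbred family (88 animals), 16 of the FXLE/LEXF family (40 animals) and 23 classic inbred strains (64 animals). The progenitors of the HXB/BXH strains are BN-Lx/Cub and SHR/OlaIpcv, and those of the FXLE/LEXF strains are LE/Stm and F344/Stm. No agent, deletion or transgene was used, and animals of a strain are near-identical in genotype. All values are on the log2 scale of the deposited table, so that a difference of 1 is a doubling. The depth is unknown because no counts were used, and library medians ran from 8.18 to 8.42. The labels name whole brain, and the methods of the study state that each brain was split sagittally and that a single side was sequenced. By those methods the HXB/BXH strains and their progenitors were kept in Prague, and their brains were shipped in liquid nitrogen. The other inbred strains of that study came from commercial suppliers, and their brains were put in RNAlater. For strains outside that study the paper states neither. Source and storage thus cannot be told apart from strain.

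The choroid plexus is a vascular tissue in the brain ventricles whose epithelium secretes cerebrospinal fluid and forms the barrier between blood and that fluid. It is a small part of the brain, and its transcripts in a brain homogenate come with those of every other cell. Ttr encodes transthyretin, the carrier of thyroxine and retinol-binding protein that the epithelium secretes. Otx2 encodes a homeodomain transcription factor needed for the tissue to form, and Sostdc1 a secreted antagonist of BMP and Wnt signalling. Kl encodes klotho, the co-receptor of FGF23, and Folr1 the folate receptor alpha that carries folate across the epithelium. Aqp1 is the water channel of the apical membrane, Slc4a5 a sodium bicarbonate cotransporter, Kcnj13 the inward rectifier potassium channel Kir7.1, Kcne2 a potassium channel subunit, and Clic6 a member of the chloride intracellular channel family. In a bulk sample, fewer cells of a type and less RNA per cell cannot be told apart.

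In the rn6 genome, the deposited annotation places the annotated transcript of Ttr at chr18:15532963-15540177 and that of Folr1 at chr1:166934462-166943592, both on the minus strand. Aqp1 lies at chr4:85551503-85563683 and Sostdc1 at chr6:55812747-55817066, both on the plus strand. Kcnj13 lies at chr9:94487224-94495333 on the minus strand, and 5 reconstructed transcripts of Kl span chr12:942974-1007070 on the plus strand. Kcne2 (chr11:32440237-32447259) and Clic6 (chr11:32655616-32699382) lie on the same chromosome and the same strand. 

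Promoters of members were searched for the letters that OTX2, itself a member, is known to recognise. RefSeq promoters (build GRCr8) were matched for 5 of the 10 members, Ttr, Kl, Aqp1, Kcnj13 and Slc4a5, and the 250 bases before each start were searched on both strands. The core of the site, TAATC, was found for Kl, Kcnj13 and Ttr and in 20.5% of all 33469 promoters in the table. The longer form TAATCC, which contains the core, was found in none of the 5 and in 6.34% of all. A TATA box (TATAAA) was found for Aqp1 and Kcnj13 and in 12.9% of all. The windows of Kl (chr12:5325753-5326002, plus strand) and Kcnj13 (chr9:95518987-95519236, minus strand) are printed 5′ to 3′ with the core or its reverse complement in capitals, and that of Aqp1 (chr4:85812534-85812783, plus strand) with the TATA box in capitals.
Kl: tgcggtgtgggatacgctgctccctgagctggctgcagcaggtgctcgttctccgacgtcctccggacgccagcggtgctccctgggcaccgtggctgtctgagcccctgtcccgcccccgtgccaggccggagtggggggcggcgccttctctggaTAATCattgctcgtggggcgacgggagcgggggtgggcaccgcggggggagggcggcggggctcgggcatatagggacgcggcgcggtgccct
Kcnj13: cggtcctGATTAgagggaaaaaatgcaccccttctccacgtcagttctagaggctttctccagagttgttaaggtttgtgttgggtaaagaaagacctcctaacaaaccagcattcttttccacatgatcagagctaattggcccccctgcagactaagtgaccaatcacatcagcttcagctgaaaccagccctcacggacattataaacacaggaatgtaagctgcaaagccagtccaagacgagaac
Aqp1: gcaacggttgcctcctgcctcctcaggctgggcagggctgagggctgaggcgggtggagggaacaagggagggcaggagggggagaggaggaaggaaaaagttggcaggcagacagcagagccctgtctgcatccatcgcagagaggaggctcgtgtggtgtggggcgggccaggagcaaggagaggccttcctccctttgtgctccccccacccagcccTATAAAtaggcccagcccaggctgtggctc
The core stands 93 bases before the start of Kl and 243 bases before that of Kcnj13, and the TATA box of Aqp1 stands 30 bases before its start. Each is a match of letters, not a measured binding site, and a link to the members' levels was not tested.

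The first question was how far each member varied between animals and how much of that variation lay between strains. Ttr ran from 13.04 in SHRSP/A3NCrl animal 2 over a median of 14.05 to 14.91 in HXB4/Ipcv animal 1. The SD among animals of a strain was 0.38. Strain means of Ttr ran from 13.38 ± 0.28 (SD, n = 3) in LEXF10B/Stm to 14.56 ± 0.26 (SD, n = 3) in HXB3/Ipcv. The share of variance between strains (R2, the sum of squares between strains divided by the total, used as broad-sense heritability) was 0.390 for Ttr. With these numbers of strains and animals an R2 of 0.356 is expected with no strain effect, since each strain mean carries the spread of its few animals. Less of the variance of Ttr thus lay between strains than for the median feature of the table (R2 of 0.434).

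Among the factors that form the tissue, Otx2 ran from 6.60 over a median of 7.35 to 8.08 and had the lowest R2 of the 10 members, 0.372. Its strain means ran from 6.88 ± 0.20 (SD, n = 3) in SR/JrHsd to 7.68 ± 0.17 (SD, n = 3) in LEW/SsNHsd. Sostdc1 ran from 6.68 over 7.56 to 8.46 (R2 of 0.421), and its strain means from 7.02 ± 0.27 (SD, n = 3) in LEXF10B/Stm to 8.11 ± 0.39 (SD, n = 3) in BXH9/Cub. The strain ranges of both genes are thus several times the SD of animals within a strain, which was 0.27 for Otx2 and 0.34 for Sostdc1, but neither passed the test of the strain effect.

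Of the receptors, Kl ran from 8.53 over 9.50 to 10.35 (R2 of 0.464). Its strain means reached from 8.81 ± 0.19 (SD, n = 3) in HXB25/Ipcv to 10.14 ± 0.17 (SD, n = 3) in BXH9/Cub, the widest range of strain means of any member. Folr1 ran from 6.84 over 7.67 to 8.42 (R2 of 0.436), with strain means from 7.16 ± 0.04 (SD, n = 3) in LEXF10B/Stm to 8.17 ± 0.22 (SD, n = 3) in HXB1/Ipcv. The animals of the lowest and highest strain did not overlap for either gene, which the choice of the extreme strains fixes.

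Of the channels and transporters, Aqp1 had the highest R2, 0.501. It ran from 8.18 over 8.86 to 9.52, with strain means from 8.30 ± 0.10 (SD, n = 3) in LEXF10B/Stm to 9.24 ± 0.21 (SD, n = 2) in SHR/OlaIpcv. Clic6 was next, with an R2 of 0.486, animals from 7.41 over 8.19 to 9.00 and strain means from 7.64 ± 0.19 (SD, n = 3) in HXB25/Ipcv to 8.67 ± 0.01 (SD, n = 3) in BXH9/Cub. Both channels were thus above the median feature in R2. Slc4a5 ran from 7.75 over 8.60 to 9.49 (R2 of 0.452), and its strain means from 8.01 ± 0.23 (SD, n = 3) in HXB25/Ipcv to 9.17 ± 0.28 (SD, n = 3) in BXH9/Cub. The potassium channel genes had a lower R2 than these transporters. Kcnj13 ran from 7.55 over 8.28 to 9.01 (R2 of 0.428), with strain means from 7.91 ± 0.40 (SD, n = 2) in LEXF5/Stm to 8.72 ± 0.12 (SD, n = 3) in BXH9/Cub. Kcne2 ran from 6.62 over 7.40 to 8.10 (R2 of 0.403), with strain means from 6.97 ± 0.05 (SD, n = 3) in LEXF10B/Stm to 7.94 ± 0.13 (SD, n = 3) in BXH9/Cub.

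**Figure D1:**
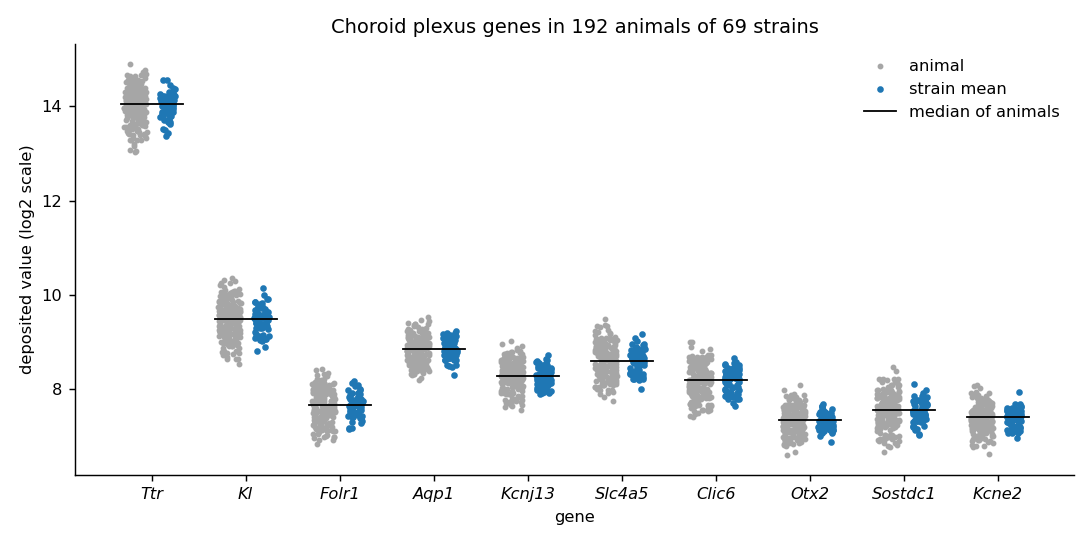
Deposited log2 values (vertical axis) of the 10 choroid plexus genes (horizontal axis), with grey points for 192 animals, blue points for the means of 69 strains and a line at the median of the animals. Ttr runs from 13.04 to 14.91 over animals, and its strain means from 13.38 to 14.56; levels are not corrected for gene length and are not compared between genes.

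The same strains stood at the ends for most members. LEXF10B/Stm was among the 5 lowest strain means for 8 of the 10 members, and BXH9/Cub was among the 5 highest for 8 of 10. In LEXF10B/Stm the values of Ttr were 13.50, 13.59 and 13.07, and those of Aqp1 were 8.38, 8.34 and 8.18. In BXH9/Cub the values of Kcne2 were 7.94, 7.82 and 8.08, and those of Kl were 10.29, 9.95 and 10.17. All 3 animals of each strain lay on 1 side of the median of the animals for these genes, which the choice of extreme strains and genes largely fixes. Because the members move together, the 8 members counted for a strain are not separate results.

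Beyond the spread between animals, 3 of the 10 members differed between strains, against 36.8% of all features by the same test (limma's moderated F-test over 69 strains, Benjamini-Hochberg adjusted over all features, 5% FDR). They were Aqp1 (adjusted p = 0.00617), Clic6 (adjusted p = 0.0123) and Kl (adjusted p = 0.0323). Slc4a5 was just outside (adjusted p = 0.0520). The adjusted p of the other 6 ran from 0.0872 for Folr1 to 0.388 for Otx2, with 0.275 for Ttr. The members' share was near that of all features, and their median R2 of 0.432 was close to the 0.434 of all features. With batch as a covariate 5 members were called, with Slc4a5 and Sostdc1 in addition, but 54.0% of all features were then called. Leaving out a replicate number in turn left 0 or 1 member, while the share of all features called fell to 15.7%, 14.9% and 29.3% without replicate 1, 2 and 3: Aqp1 was lost without replicate 1 (adjusted p = 0.199) or 2 (adjusted p = 0.130), Clic6 without 1 or 3, and Kl without any of the 3.

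Set against the mean of all other strains, only 2 member-strain pairs passed 5% FDR over all features and strains, where 1.30% of feature-strain pairs passed (limma contrast, chosen after the values were seen). Kcne2 was higher in BXH9/Cub by 0.57 ± 0.16 (SE, adjusted p = 0.0369), and Aqp1 was lower in LEXF10B/Stm (difference of -0.54 ± 0.15, SE, adjusted p = 0.0296). Neighbours among the 69 strain means were closer than the SD of animals within a strain for every member. The largest gap was 0.11 for Ttr and 0.26 for Kcne2. With so many means over these ranges, small gaps are largely fixed in advance, and no conclusion is drawn from them.

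The next question was whether the members moved together among animals of the same strain, where genotype hardly differs. They did, for all 45 pairs. Over 192 animals with strain means removed, Pearson's r ran from 0.55 for Folr1 with Otx2 to 0.90 for Kl with Clic6, and Spearman's rho from 0.52 to 0.90. In a two-sided permutation test within strains (100000 permutations), every pair reached the smallest p the test can give, 1e-05, also after Benjamini-Hochberg adjustment over the 45 relations. Without the 2 animals farthest from the median of the first gene, r ran from 0.54 to 0.90. With sequencing batch also removed, r ran from 0.53 for Kl with Otx2 to 0.90 for Kl with Clic6. Of Ttr's 20 closest features among 20858, 7 were members, and of its 50 closest all 9 others were. For Slc4a5 and Sostdc1 all 9 others stood among the 20 closest.

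Per log2 unit of Ttr within strains, Folr1 changed by 0.74 ± 0.04 (SE), the steepest slope, and Otx2 by 0.49 ± 0.05 (SE), the shallowest. Sostdc1 followed at 0.72, Slc4a5 at 0.67, Kcnj13 at 0.60, Kcne2 at 0.59, and Kl, Aqp1 and Clic6 at 0.56 each. All 9 other members were called with a positive slope, where 8.05% of all features were called positive and 5.83% negative (limma, adjusted over all features, 5% FDR). The largest adjusted p among the 9 was 2.33e-10, for Kl, and the slopes of all 9 stayed called under every alternative in which they were measured. With Folr1 in place of Ttr all 9 were called too.

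Within this common movement 6 members fell into groups that were closer within than between, a grouping read from the values and therefore not tested. Ttr, Folr1 and Aqp1 correlated with each other at 0.85 to 0.87 within strains. Kl, Slc4a5 and Clic6 correlated at 0.88 to 0.90. Between these 2 groups r was 0.57 to 0.79. Kcnj13, Kcne2, Sostdc1 and Otx2 formed no such group, since they correlated with each other at 0.73 to 0.84, with Ttr, Folr1 and Aqp1 at 0.55 to 0.83 and with Kl, Slc4a5 and Clic6 at 0.57 to 0.84. Kcne2 and Clic6, which lie close together on chromosome 11, correlated at 0.73, lower than Kcne2 with Sostdc1 on another chromosome (0.84). Over the means of 69 strains the pairs of Ttr, Folr1 and Aqp1 stood at 0.66 to 0.86. Those of Kl, Slc4a5 and Clic6 stood at 0.83 to 0.89. Pairs between the groups stood at 0.62 to 0.81, so that the first group overlapped with them. A strain mean carries the spread of its few animals, so these values are not separate from those within strains. The v6 gene table of the series, an earlier processing of its libraries, gave 0.81 to 0.84 and 0.90 to 0.91 within strains, with 0.59 to 0.78 between. In the v5 table the ranges were 0.79 to 0.88 and 0.87 to 0.92, with 0.63 to 0.86 between, so that Ttr, Folr1 and Aqp1 did not stand apart there.

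**Figure D2:**
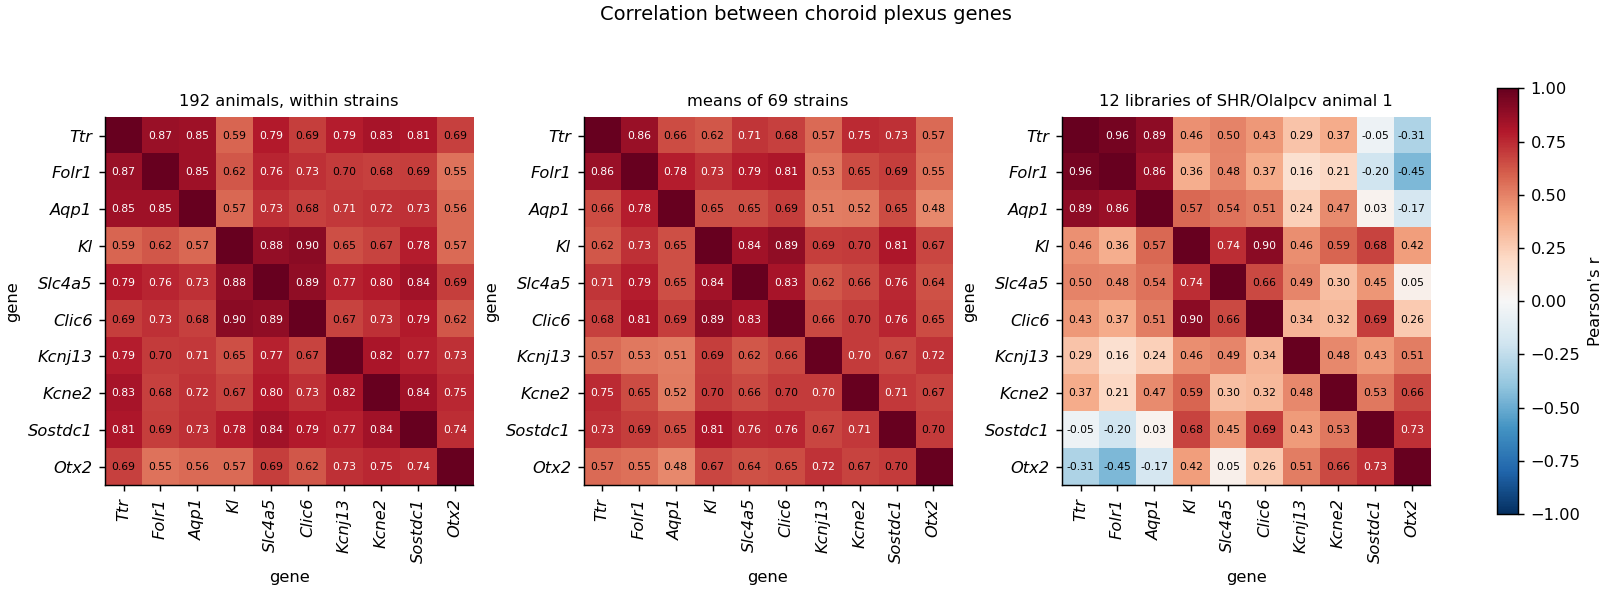
Pearson's r between each pair of the 10 genes, written in each cell and coloured from -1 (blue) to 1 (red), over 192 animals with strain means removed (left), over the means of 69 strains (middle) and over 12 libraries of SHR/OlaIpcv animal 1 (right). The pairs of Ttr, Folr1 and Aqp1 stand at 0.86 to 0.96 over the libraries of a single animal (0.75 to 0.90 without the library of batch 11), while those of Ttr, Folr1 and Aqp1 with Otx2 and Sostdc1 stand between -0.45 and 0.03, or between 0.04 and 0.56 without the library of batch 11.

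Repeat libraries of a single animal gave a spread over libraries for which the animal does not change. The table held 12 libraries, sequenced in 12 batches, to which the labels give the strain and replicate number of SHR/OlaIpcv animal 1. It held 6 libraries of animal 4, each from another batch. The SD over libraries thus also holds the spread between batches, of which the animals of most strains span fewer. Library and animal SDs are therefore not like for like. Whether the libraries of an animal share an RNA extract is not stated. The labels give animal 1 further libraries, in other batches, that the table did not hold. Over the 12 libraries Ttr ran from 13.25 over a median of 14.01 to 14.30, with an SD of 0.30, against 0.38 among animals of a strain. Folr1 had an SD of 0.38 over these libraries and Clic6 of 0.32, both above the 0.33 and 0.31 among animals of a strain. For Kcnj13, Slc4a5, Kcne2, Sostdc1 and Otx2 the library SD was smaller, 0.16 to 0.21, against 0.27 to 0.34 among animals. The 6 libraries of animal 4 gave 0.25 for Ttr, 0.27 for Folr1, 0.32 for Clic6 and 0.09 for Kcne2, so that Folr1 was below its spread among animals there. Without the library of batch 11, the SD over the libraries of animal 1 was 0.22 for Ttr, 0.26 for Folr1 and 0.34 for Clic6. For the median feature the SD over the 12 libraries was 1.04 times that among animals of a strain, so that Kcnj13 at 0.56 times and Kcne2 at 0.60 times stood further from the library spread than the median feature.

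**Figure D3:**
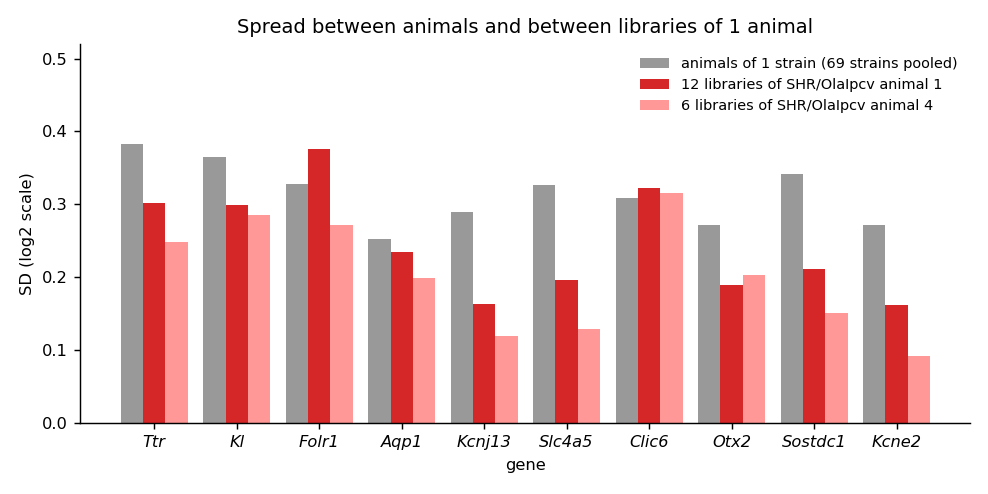
SD on the log2 scale (vertical axis, from 0) of each gene among animals of a strain (grey, pooled over 69 strains), over 12 libraries of SHR/OlaIpcv animal 1 (red) and over 6 libraries of animal 4 (pink). For Clic6 the library bars (0.32 and 0.32) reach the grey bar (0.31), and for Kcne2 they stay below it (0.16 and 0.09 against 0.27).

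The pairs did not behave alike over these libraries, which share an animal and are given as a description. Ttr correlated with Folr1 at 0.96 over the 12 libraries and at 0.96 over the 6, and with Aqp1 at 0.89 and 0.90. Kl and Clic6 correlated at 0.90 and 0.99. Ttr with Sostdc1, at 0.81 over animals within strains, stood at -0.05 over the 12 libraries and -0.29 over the 6. Ttr with Otx2, at 0.69 over animals, stood at -0.31 and -0.49, and Ttr with Kcnj13, at 0.79 over animals, at 0.29 and -0.13. These values rest in part on the library of batch 11, which had the lowest Ttr (13.25) and the highest Sostdc1 (7.89) and Otx2 (7.62) of the 12. Over the other 11 libraries Ttr stood at 0.55 with Sostdc1, 0.27 with Otx2 and 0.46 with Kcnj13, and at 0.90 with Folr1 and 0.80 with Aqp1. No test of the difference between libraries and animals was run, and the library was singled out after its values were seen. The part of library preparation in the other pairs was not tested across animals, for which mostly a single library exists. Sequencing batch itself, added to strain, was called for 0.671% of features and for none of the members (limma's F-test, adjusted p of 0.93 or more, with 0 members at an unadjusted p under 0.05).

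Outside the members, the features most like them by mean within-strain r over 192 animals were Cldn2 (0.82), Mfrp (0.76), Tmem72 (0.76), Slco1a5 (0.73), F5 (0.72), Enpp2 (0.72), Prr32 (0.71), Prlr (0.70), Abca4 (0.69) and Mdk (0.65). Cldn2 encodes the claudin of leaky tight junctions, Enpp2 autotaxin, Prlr the prolactin receptor, F5 coagulation factor V, Slco1a5 an organic anion transporter and Mdk the growth factor midkine. Of the 10, 7 belong to the list of 32 other choroid plexus genes. Mfrp and Tmem72 were closest to Slc4a5 (0.87 and 0.89), Enpp2, Prlr and Slco1a5 to Kcnj13 (0.88, 0.82 and 0.86), and Mdk to Folr1 (0.83).

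Of the other choroid plexus list, 31 of 32 genes were measured and 27 were called with a positive slope on Ttr at 5% FDR, with 0 called negative, against the 8.05% and 5.83% of all features. Their median within-strain r with Ttr was 0.52, against 0.01 for all features. The closest were Cldn2 (0.82), Prr32 (0.78) and Calml4 (0.76), and the least close were Slc22a8 (-0.04), Lbp (0.04) and Steap2 (0.04). Slc22a8, the organic anion transporter 3, and Lbp, the lipopolysaccharide binding protein, were listed as choroid plexus genes and had no slope past the test. Among transporters of fluid secretion that neurons and glia also use, 1 of 9 measured was called, the anion exchanger gene Slc4a2 (r of 0.35), and Slc12a2 and Aqp4 stood at 0.14 and 0.07.

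Most genes listed as markers of tissue next to the choroid plexus moved with Ttr as well. Of 11 ependymal genes, which line the ventricles with ciliated cells, 9 were called with a positive slope at 5% FDR and 0 with a negative one, with a median r of 0.39. Cfap126 (0.72) and Tekt1 (0.55), both genes of motile cilia, were closest, and Foxj1, the regulator of motile cilia, stood at 0.45. The mean of the ependymal list ran from 6.36 to 7.18 over animals and correlated with Ttr at 0.62 within strains. Of 11 genes of meninges and fibroblasts 7 were called with a positive slope at 5% FDR, with a median r of 0.26, led by Ptgds (0.39) and Dcn (0.32), and their list mean ran from 9.51 to 10.59. Most genes of both lists were thus called, where 8.05% of all features were called positive. Mia (-0.12) and Dnah11 (0.04) of the ependymal list and Fmod (0.06) of the meningeal list were not called. Whether the RNA of the listed genes came from those tissues or from the choroid plexus itself was not tested. Nor was the part of ependymal and meningeal RNA in the members' levels.

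Liver and kidney, which also express some of the members, gave no gene that moved with Ttr past the test. Counts of genes at an unadjusted p under 0.05 are to be read against 5891 of 20858 features with such a slope (limma). Ttr is also a liver gene, and 0 of 11 liver genes had a slope on Ttr past the test, with 0 at an unadjusted p under 0.05 (limma), r from -0.09 to -0.03 and a list mean that ran from 5.70 over 7.21 to 12.61 over animals, highest in HXB10/Ipcv animal 1. Kl, Folr1 and Kcnj13 are also kidney genes, and 0 of 5 kidney genes measured had such a slope, with 0 at an unadjusted p under 0.05 (r from -0.11 to 0.11, list mean 4.14 to 4.58). Slopes of the liver genes had SEs of 0.14 to 0.23, and those of the kidney genes 0.03 to 0.05. The liver list is thus the weaker test. None of 7 blood genes was called by limma, but 5 had an unadjusted p under 0.05 (r of 0.12 to 0.24). None of 4 pineal genes was called, and 3 had an unadjusted p under 0.05 (r of 0.16 to 0.23). The part of blood and pineal RNA in the members' levels was not tested. Of 3 pituitary genes Lhb was called (r of 0.30), and of 4 astrocyte genes Aldh1l1 (r of 0.29). Of 3 neuronal genes 1 was called with a negative slope, Syt1 (r of -0.29). The 3 genes of oligodendrocytes gave none, with 0 at an unadjusted p under 0.05, and the 3 of endothelium none, with 2.

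**Figure D4:**
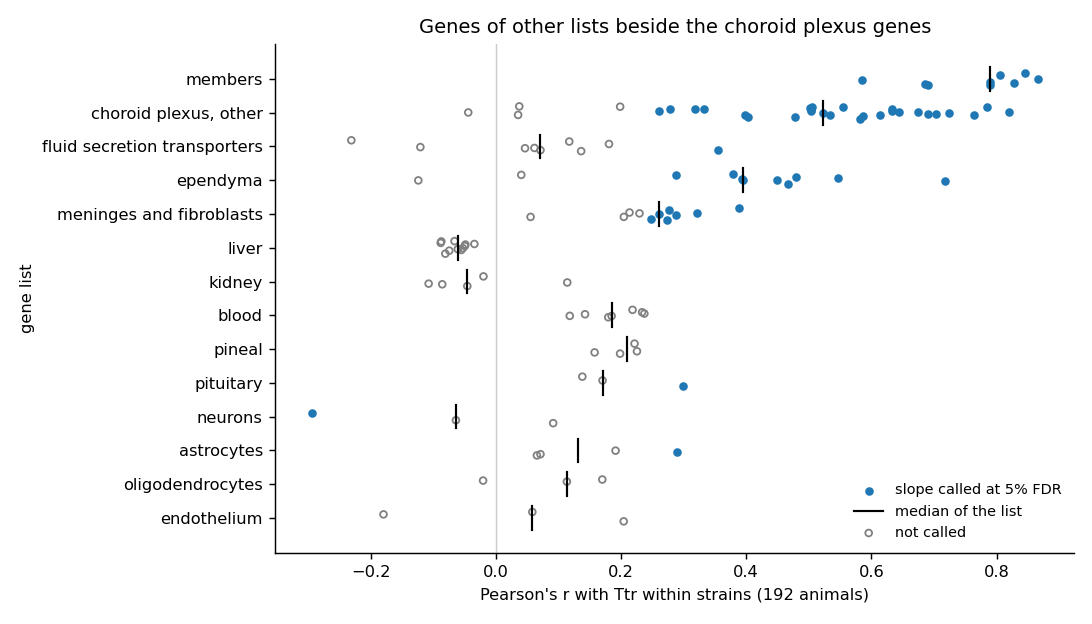
Pearson's r with Ttr within strains (horizontal axis, 192 animals) for each gene of 14 lists (vertical axis), filled where the slope was called at 5% FDR and open where it was not, with a line at the median of each list. The 9 other choroid plexus genes lie between 0.59 and 0.87, the ependymal median at 0.39, and the liver genes between -0.09 and -0.03.

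The shared level was then taken out, to ask which members differed between strains beyond it. For each member the mean of the 9 others, each scaled to unit SD, entered the fit beside strain. A strain effect was then found for 6 of 10 members, where 35.4% of all features were called over the 10 fits (limma's F-test, adjusted over all features). Fit by fit, that share was 35.5% beside the members other than Ttr, Kl or Slc4a5, 35.7% for Aqp1 and Clic6, 35.9% for Folr1, 34.8% for Kcnj13, 35.4% for Sostdc1 and 35.0% for Otx2 and Kcne2. The covariate holds genes that move with the tested member, so it takes up more of a member's spread among animals than of most features'. The share of all features is thus not a like background for the members, and the 10 fits are not independent, since they share members. The 6 members called were Aqp1 (adjusted p = 7.93e-05), Slc4a5 (0.000182), Kcnj13 (0.000732), Kcne2 (0.00713), Ttr (0.00754) and Sostdc1 (0.0133), all adjusted p-values of the limma fit. Kl, called without the covariate, was not called with it (adjusted p = 0.453), nor were Clic6 (0.10), Folr1 (0.266) and Otx2 (0.441). Only Aqp1 was thus called both with and without the other members in the fit. Leaving out replicate 1 or 2 left 2 members, which were Kcnj13 and Slc4a5 without 1 (15.1% of all features called) and Aqp1 and Sostdc1 without 2 (14.1%).

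By strain, 7 member-strain pairs left the shared level at 5% FDR over all features and strains, of 690 tested, where 1.28% of feature-strain pairs were called over the 10 fits. At 1.01% the members' share was no higher than that of all features, and the pairs below are given as single values. Each difference below is from the mean of the other strains with the 9 other members in the fit (limma contrast). By this measure Kcnj13 was low in HXB1/Ipcv (-0.44 ± 0.09, SE, adjusted p = 0.00159). Its plain strain mean was 8.09 there, against 8.29 in the other strains. Its values there were 7.79, 7.87 and 8.60, while HXB1/Ipcv had the highest strain mean of Folr1. Levelled for the other members, the 3 animals stood at 7.61, 7.87 and 8.07, all below the 8.29 of the other strains. Slc4a5 was low in FXLE14/Stm (-0.35 ± 0.08, SE, adjusted p = 0.00418), with values of 8.68, 8.20 and 8.08, and high in FXLE15/Stm (0.36 ± 0.09, SE, adjusted p = 0.0283), with values of 8.87 and 9.06. Levelled for the others, the FXLE14/Stm animals stood at 8.36, 8.07 and 8.34 and the FXLE15/Stm animals at 9.02 and 8.88, on either side of 8.60. These are recombinant strains of the same family, and the choice of a low and a high departure fixes that their animals lie apart. They share no sequencing batch, so that strain and batch cannot be told apart between them.

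Aqp1 was low in BN-Lx/Cub (-0.32 ± 0.09, SE, adjusted p = 0.0302), with values of 8.44, 8.46 and 8.58, and high in BXH11/Cub (0.31 ± 0.09, SE, adjusted p = 0.0432), with values of 9.03, 9.31 and 9.12. Ttr was low in SHRSP/A3NCrl (-0.54 ± 0.13, SE, adjusted p = 0.00853). The 2 animals of that strain had Ttr at 13.04 and 13.99, but levelled for the other members they stood at 13.47 and 13.49, against 14.03 in the other strains. Sostdc1 was low in PVG/Seac (-0.32 ± 0.09, SE, limma contrast, adjusted p = 0.0428), with values of 6.92, 7.78 and 7.34. The plain strain mean of Sostdc1 was 7.35 there, against 7.55 in the other strains. Levelled for the other members, the 3 animals stood at 7.28, 7.30 and 7.11, against 7.55. Kl, Folr1, Clic6, Otx2 and Kcne2 left the shared level in no strain. With batch as a covariate 6 of the 7 pairs were lost, and only Slc4a5 in FXLE14/Stm was still called among them. Without replicate 1 that pair alone was called, and without replicate 2 no pair was. Over the 11 alternatives the number of member-strain pairs called ran from 0 to 8, which includes pairs other than these 7.

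**Figure D5:**
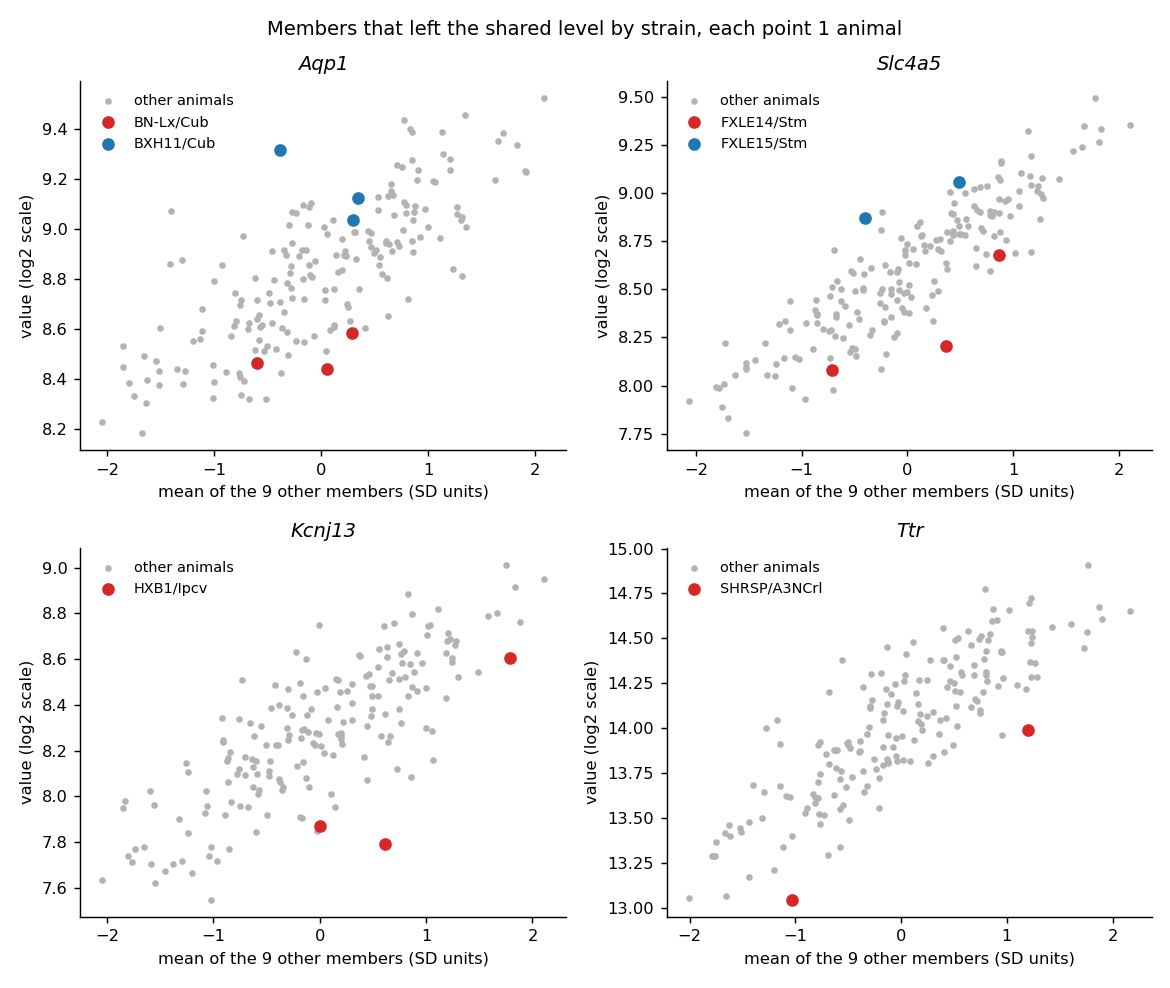
Value of Aqp1, Slc4a5, Kcnj13 and Ttr in each animal (vertical axes, log2 scale) against the mean of the 9 other members (horizontal axes, SD units), with grey points for 192 animals and coloured points for the strains that left the shared level. The BN-Lx/Cub animals have Aqp1 at 8.44, 8.46 and 8.58, among the lower grey points of their shared level, and the 2 SHRSP/A3NCrl animals have Ttr at 13.04 and 13.99.

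The progenitors of the HXB/BXH family were compared for all members. Of the 10, only Aqp1 differed between BN-Lx/Cub (8.50 ± 0.08, SD, n = 3) and SHR/OlaIpcv (9.24 ± 0.21, SD, n = 2), where 4.51% of all features did (limma contrast in the fit over all strains, 5% FDR). The difference, BN-Lx/Cub minus SHR/OlaIpcv, was -0.75 ± 0.23 (SE, adjusted p = 0.0359). The BN-Lx/Cub animals stood at 8.44, 8.46 and 8.58, and the SHR/OlaIpcv animals, means of 12 and of 6 libraries, at 9.10 and 9.39. Folr1 was nearest among the rest (-0.57 ± 0.30, SE, adjusted p = 0.271), and Otx2 was the only member with a higher mean in BN-Lx/Cub (0.12 ± 0.24, SE, adjusted p = 0.837). In the 30 HXB/BXH strains the means of Aqp1 ran from 8.50 over 8.88 to 9.16, none below BN-Lx/Cub and none above SHR/OlaIpcv. Aqp1 was singled out here as the member called between the progenitors. Its R2 among the 30 strains was 0.366 (limma's F-test, adjusted p = 0.389), where 0.333 is expected with no strain effect. For Folr1 0 of the 30 were below BN-Lx/Cub and 5 above SHR/OlaIpcv, and for Ttr 6 were below and 4 above. The call for Aqp1 was lost, with the difference still negative, with batch as a covariate (-0.75), with the replicate number as a block (-0.81), with 1 library per animal (-0.56), in the v6 table (-0.39) and without replicate 2 (-0.73). It was also lost without replicate 1 (-0.87), where SHR/OlaIpcv is left with a single animal that is assumed to vary like the animals of the other strains.

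Within the panels, Aqp1 (R2 of 0.65, adjusted p = 0.00143) and Folr1 (R2 of 0.539, adjusted p = 0.0416) differed among the 23 classic inbred strains, where 18.6% of all features did (limma's F-test). The R2 of Ttr there was 0.503 (adjusted p = 0.0885). Among the 30 HXB/BXH strains no member was called, against 19.1% of all features, with 3 members at an unadjusted p under 0.05, while 3 were called with batch as a covariate, against 32.1% of all features in that fit. Clic6 (R2 of 0.484, adjusted p = 0.0579), Kl (0.468, adjusted p = 0.0820) and Sostdc1 (0.445, adjusted p = 0.132) were nearest, and Ttr had an R2 of 0.299. Among the 16 FXLE/LEXF strains none was called, against 5.00% of all features, with 2 members at an unadjusted p under 0.05, Slc4a5 (R2 of 0.60, adjusted p = 0.108) and Aqp1 (0.543, adjusted p = 0.204). The R2 expected with no strain effect is 0.349 for the classic inbred, 0.333 for the HXB/BXH and 0.385 for the FXLE/LEXF strains. The differences between panels were not tested, and the source and storage of the tissue run partly with panel. In the v6 table, with 5 FXLE/LEXF strains and 13 animals, 5 members were called in that family, against 15.6% of all features in the same fit, and in the classic inbred strains Folr1 was lost with batch as a covariate, with the replicate number as a block (adjusted p = 0.0551), with 1 library per animal, in the v6 table and without replicate 1, 2 or 3, and Aqp1 without 2 (adjusted p = 0.167) or 3 (adjusted p = 0.0506).

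At the level of RefSeq transcripts, 16 of the members' transcripts were measured and 2 differed between strains, where 13.4% of all transcripts did. These were the single transcripts of Aqp1 (R2 of 0.523, adjusted p = 0.00703) and Clic6 (R2 of 0.510, adjusted p = 0.0129), by limma's F-test. The main transcript of Ttr followed its gene (within-strain r of 1.00, R2 of 0.400, adjusted p = 0.399). The 2 transcripts of Kl followed the gene at 0.95 and 0.59, and the 3 of Slc4a5 at 0.55, 0.38 and 0.28. The only transcript of Kcne2 in the table ran from -1.45 to 7.73 and followed its gene at 0.04 within strains, so that its values do not stand for the gene.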

How the data were processed

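RNA of rat brain was measured in libraries that the labels assign to strain, replicate number and sequencing batch, and strains are the groups here. The authors deposited log2 values per gene or transcript, and none of the tables holds counts, so the depth per sample is unknown and no counting interval is given. The submitters' processing notes name cutadapt 1.9.1, Bowtie2 2.3.4.3 or 2.4.5, HISAT2 2.1.0 or 2.2.1, StringTie 1.3.5 or 2.2.1, RSEM 1.3.1 or 1.3.3 and DESeq2. For the isoform data of its own analyses the study's methods describe alignment to strain-specific genomes, removal of 1 factor of unwanted variation and a regularised log. The steps behind the v7.1 tables used for the reported values and their genome build are not given in the sources used here. A factor removed before deposit can also take out shared tissue content. Reads of overlapping or paralogous genes can be split by the estimation.

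Libraries of an animal were averaged, and strains with 1 animal (5 strains) were left out of the reported tests. Tests were fitted over all 20859 features with limma 3.58.1 in R 4.3.3 (empirical Bayes, Benjamini-Hochberg adjustment over all features, 5% FDR), with strain as the group and no filter on low values. Within-strain slopes had Ttr as a covariate beside strain. Departures were contrasts of a strain with the mean of the others, with the mean of the other 9 members as a covariate. Correlations of strain-centred values were tested by 100000 permutations within strains (numpy 2.4.6, scipy 1.17.1). The fits were tested on simulated data. Animals are the replicates, and since nothing states how animals were spread over litters, p-values measure the spread between these animals. The labels' batches number 17 in the table. The batch in the title differs from the batch characteristic in 26 of 232 samples. The characteristic was used, which equals the batch in the column name for all 213 columns matched to a sample. Alternatives were batch as a covariate, the replicate number as a block, leaving out each replicate number, leaving out libraries that stand apart, a filter at the median feature value, 1 library per animal, the v6 and v5 tables, a principal component as the shared level, Folr1 in place of Ttr and, chosen after seeing the data, leaving out LEXF10B/Stm. The number of value columns left unused in the tables read was 0.

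The members, the lists and the tests were chosen with earlier results of these data known. Besides the members, the text names the 10 features with a symbol and the highest mean within-strain correlation with the members, the 3 genes of the other choroid plexus list closest to Ttr and the 3 least close, the lowest and highest strain of each member, and the departures called. List genes named outside this rule were chosen after their values were seen. Positions come from the deposited rn6 annotation and promoters from RefSeq (GRCr8), without conversion between builds.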

Additional observations from a re-analysis of the deposited data

How the results depend on the processing

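No called value changed direction under any alternative. With batch as a covariate the strain effect was called for 5 members (3 as reported), with 54.0% of all features called, for 3 in the HXB/BXH strains (0 as reported), for 1 among the classic inbred strains (2 as reported) and for 0 between BN-Lx/Cub and SHR/OlaIpcv (1 as reported). The v5 table called 7 of 9 members measured, with 63.7% of all features called. The v6 table called 3 departures, 0 members between the progenitors, 5 in FXLE/LEXF strains and 1 among inbred strains. With 1 library per animal the progenitors gave 0 and the inbred strains 1. With features under the median left out, 4 members could be tested, of which 3 were called beside the others, with 3 slopes on Ttr, 4 departures (of the 5 these members had, Aqp1 in BXH11/Cub was lost at an adjusted p of 0.0615) and 1 member among inbred strains. Leaving out each replicate number in turn gave 0 to 1 members for the strain effect, 2 to 4 beside the others, 9 to 9 slopes, 0 to 5 departures, 0 to 1 between the progenitors, 0 to 1 in HXB/BXH, 0 to 0 in FXLE/LEXF and 0 to 1 among inbred strains, with fewer animals in each fit. The causes of the other changes were not tested. Of 70 departure values over the alternatives 25 lost the call, of 92 slopes 0 did, and leaving out LEXF10B/Stm or the libraries that stand apart moved no count.

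Replicate numbers are shared between strains but the animals share only a number. Same-numbered animals of different strains had a median correlation of 0.01 in their deviations (32.9% of 5927 pairs over 0.1), against -0.01 (28.8% of 12232) for other numbers. With the number as a replicate block the counts were 3 for the strain effect, 6 beside the others, 9 slopes and 7 departures, and 0 between the progenitors and 1 among the inbred strains. Depth could not be weighed because the tables hold no counts.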

Other observations

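Beyond the comparisons above, the slope of each member on Ttr within strains was set side by side in the 3 panels. For Sostdc1 the slope was 0.64 in the HXB/BXH strains, 0.71 in the FXLE/LEXF strains and 0.92 in the classic inbred strains. For Kl it was 0.48, 0.48 and 0.84, and for Slc4a5 0.65, 0.56 and 0.85, in the same order. Folr1 stood at 0.72, 0.77 and 0.77. A test of the difference in slope between the panels called 0 of the 9 members and 0% of all features (limma's F-test of the interaction, 5% FDR), with 0 members at an unadjusted p under 0.05 and the lowest adjusted p, 0.892, for Clic6 and Sostdc1.

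Among the 10 features most like the members, Abca4, a lipid transporter gene, had an R2 between strains of 0.572 (limma's F-test, adjusted p = 4.604e-05) and Mfrp one of 0.525 (adjusted p = 0.00133), both above the 0.501 of Aqp1. The difference from the members was not tested.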
